A study of Mus musculus with 22 samples.

Results

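The HoxB cluster of the mouse lies on chromosome 11 (GRCm38) from Hoxb13, which starts at base 96194316, to Hoxb1, which ends at base 96368256, and is flanked on either side by genes that are not Hox genes. The flanking genes described here are a list of 30 symbols, neighbours of HoxB on this chromosome, a rule that uses no measured value; the list was drawn up with earlier results of these data known. Of the 30, 28 were in the count tables, which hold 52535 symbols. Prac1 and Atp5mc1 were not matched; Atp5mc1 is a RefSeq synonym of Atp5g1, which was. Of the 28, 25 had enough counts to be tested, among 16765 genes tested in all. Lrrc46, Gip and Phospho1 did not pass the filter on low counts. By the GENCODE annotation (release M21), 16 of the 28 lie beyond Hoxb1, from Skap1, 96.3 kb from the cluster, to Npepps, 838 kb away. The other 12 lie beyond Hoxb13, from Ttll6, 28.9 kb away, to Phospho1, 362 kb away.

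RNA-seq was done on E14 cells, an established mouse embryonic stem cell line, 1 day after LIF and 2 kinase inhibitors were withdrawn and 2 µM retinoic acid was added. The 4 genotypes had 3 libraries each, and all received this treatment: E1-KO, without the element E1; E2-KO, without the element E2; D-KO, which the labels do not spell out and which is read here as lacking both; and unedited WT. Where the elements lie is not stated in the sources used here, and counts per gene do not check the deletions. In these counts 9 of the 10 HoxB genes were lower than in WT in each KO genotype, which is no check of the deletions either. In edgeR's test, at an adjusted p under 0.05, 18.5%, 18.6% and 12.2% of all tested genes were lower in E1-KO, E2-KO and D-KO. Marker genes of pluripotency and primitive endoderm differed from WT too, as given below.

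Enhancers act on promoters over long stretches of the same chromosome, and the loss of an enhancer can be read in any gene that it contacts, so the genes next to a Hox cluster are a standard place to look for effects beyond the cluster. Retinoic acid acts through nuclear receptors that bind near Hox clusters and switch Hox genes on in order along the chromosome. The genes flanking HoxB do unrelated work: they include adaptor proteins of signalling, transcription factors, a nuclear import receptor, a heterochromatin protein, an autophagy receptor and enzymes that modify tubulin, glycans and ubiquitin. Many of them are used in most cell types.

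The libraries held 9101547 to 13007735 counts. The WT libraries lay far apart, with a chi-square per gene of 38.9 to 77.8 between pairs, against 2.20 to 3.99 within a KO genotype. Within a library, relative expression correlated over genes with transcript GC content at a Spearman rho of 0.25 to 0.36 for E1-KO, 0.31 to 0.45 for E2-KO, -0.11 to -0.03 in D-KO, and -0.58, 0.15 and -0.45 in WT replicates 1, 2 and 3. Mitochondrial transcripts took 1.36% to 1.48% of counts in E1-KO, 1.63% to 1.81% in E2-KO, 2.53% to 2.69% in D-KO, and 3.50%, 1.94% and 5.88% in the WT replicates. The summed level of 5 pluripotency markers (Pou5f1, Sox2, Nanog, Zfp42 and Esrrb) was 4208 to 4344 counts per 1e6 counts, written CPM here, in E1-KO, 3868 to 4086 in E2-KO, 3188 to 3267 in D-KO and 1852 to 2804 in WT. That of 6 primitive endoderm markers was 28.4 to 29.0 CPM for E1-KO, 65.7 to 66.2 for E2-KO, 81.7 to 84.8 for D-KO and 151 to 162 in WT. Fibroblast markers summed to at most 8.15 CPM, with Lum at 0 in each group. The 3 libraries of each genotype are labelled biological replicates, with no word on cultures or clones, so p-values measure only the spread between these samples. In bulk RNA, fewer cells that express a gene and less RNA per cell cannot be told apart.

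RefSeq promoter windows (GRCm38.p6), taken as the 250 bases before an annotated start, were found for 18 of the genes, with 26 windows in all. The windows of 3 genes are shown because B4galnt2 and Nfe2l1 are the genes that differed between D-KO and both other deletions, and Ttll6 is the nearest gene to the cluster; bases that lie in an exon of any annotated transcript are left out. Capitals mark AGGTCA, the core motif of retinoic acid receptors, in Ttll6, and GGGCGG, the box bound by Sp factors, in Nfe2l1. The window of B4galnt2 also holds a GGGCGG, 71 bases before the start, among the 89 exon bases left out. Nfe2l1 has 5 windows, of which that with the highest end coordinate is shown.
B4galnt2: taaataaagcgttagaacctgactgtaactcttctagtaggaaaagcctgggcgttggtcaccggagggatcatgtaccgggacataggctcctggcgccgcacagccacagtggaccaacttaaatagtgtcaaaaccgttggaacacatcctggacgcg
Ttll6: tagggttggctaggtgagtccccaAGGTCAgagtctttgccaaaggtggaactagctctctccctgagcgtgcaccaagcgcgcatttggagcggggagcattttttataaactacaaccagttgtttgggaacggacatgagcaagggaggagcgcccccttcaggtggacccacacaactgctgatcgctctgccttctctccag
Nfe2l1: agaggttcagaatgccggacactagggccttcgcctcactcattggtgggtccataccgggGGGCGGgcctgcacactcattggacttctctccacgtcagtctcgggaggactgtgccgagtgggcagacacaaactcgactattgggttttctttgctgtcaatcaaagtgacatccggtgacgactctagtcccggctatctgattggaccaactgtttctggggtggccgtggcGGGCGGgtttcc
These lie at chr11:95914961-95915121 (minus strand), chr11:96133536-96133742 (plus strand) and chr11:96829969-96830218 (minus strand). On either strand, AGGTCA was in 4 of the 26 windows, from 2 genes, and in 14.02% of all 32851 windows of this length. AGTTCA was in 2 of the 26 and in 11.8% of all windows, and GGGCGG in 15 of the 26, from 12 genes, and in 32.7% of all windows. No member window held a direct repeat of AGGTCA or AGTTCA spaced by 1, 2 or 5 bases, the classical retinoic acid response element, which 0.0670%, 0.0365% and 0.0335% of all windows held. A match describes the letters only and was not tested as a binding site.

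Against WT, flanking genes went both ways in each KO genotype, and many genes elsewhere in the genome were called too. In E1-KO, 13 of the 25 tested genes differed from WT, with 8 higher (beside 15.7% of all tested genes) and 5 lower (beside 18.5%), or 34.2% of all genes in both directions. A gene is called here at an adjusted p (Benjamini-Hochberg) under 0.05 in the quasi-likelihood test of edgeR. In E2-KO 11 differed, 6 higher (beside 16.7% of all) and 5 lower (beside 18.6%), where 35.3% of all genes were called. In D-KO 5 differed, 2 higher (beside 10.6%) and 3 lower (beside 12.2%), where 22.8% of all genes were called. The median log2 fold change of the 25 was 0.11 for E1-KO, 0.02 for E2-KO and -0.13 for D-KO, against -0.01, 0.00 and -0.02 for all tested genes. The libraries of the KO genotype and of WT did not overlap for 13 of the 25 in E1-KO, beside 41.1% of all tested genes, 9 in E2-KO, beside 41%, and 8 in D-KO, beside 32.8%. Skap1, 1 of the lower genes in each comparison, passed the filter on low counts only through WT, and without it 4, 4 and 2 genes were lower. Other fits with WT moved both counts: with only the 6 libraries of the genotypes compared 5, 3 and 3 flanking genes were called for E1-KO, E2-KO and D-KO, beside 15.9%, 16% and 9.09% of all genes, with limma and weights per genotype 6, 4 and 2, beside 19.6%, 19.3% and 11.5%. Leaving out each library in turn gave 5 to 17, 4 to 16 and 2 to 10 flanking genes, where 23% to 51.1%, 23% to 51.9% and 14% to 40.9% of all genes were called. Of the calls against WT, those of Calcoco2 in all 3 genotypes, Osbpl7 in E1-KO and Ttll6 in D-KO held in each alternative analysis that kept at least 2 WT libraries. With WT replicate 2 as the only WT library 10, 8 and 9 were called, beside 30.8%, 30.1% and 34.8%, and 13 for the interaction, beside 38.7%. That fit has no spread within WT and takes it from the KO genotypes, so its values are given below without a call. The median dispersion was 0.00563 to 0.00774 in the KO genotypes and 0.0935 in WT. WT replicate 2 was kept after the data were seen. Of the WT libraries it is the nearest to the KO libraries in GC correlation (0.15) and mitochondrial share (1.94%). Smaller changes in that fit are therefore not an independent check. The 3 comparisons share the WT libraries and are therefore not independent of each other. All adjusted p-values of single genes here come from this edgeR test unless another is named, and each ± after a log2 fold change is its standard error.

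**Figure D1:**
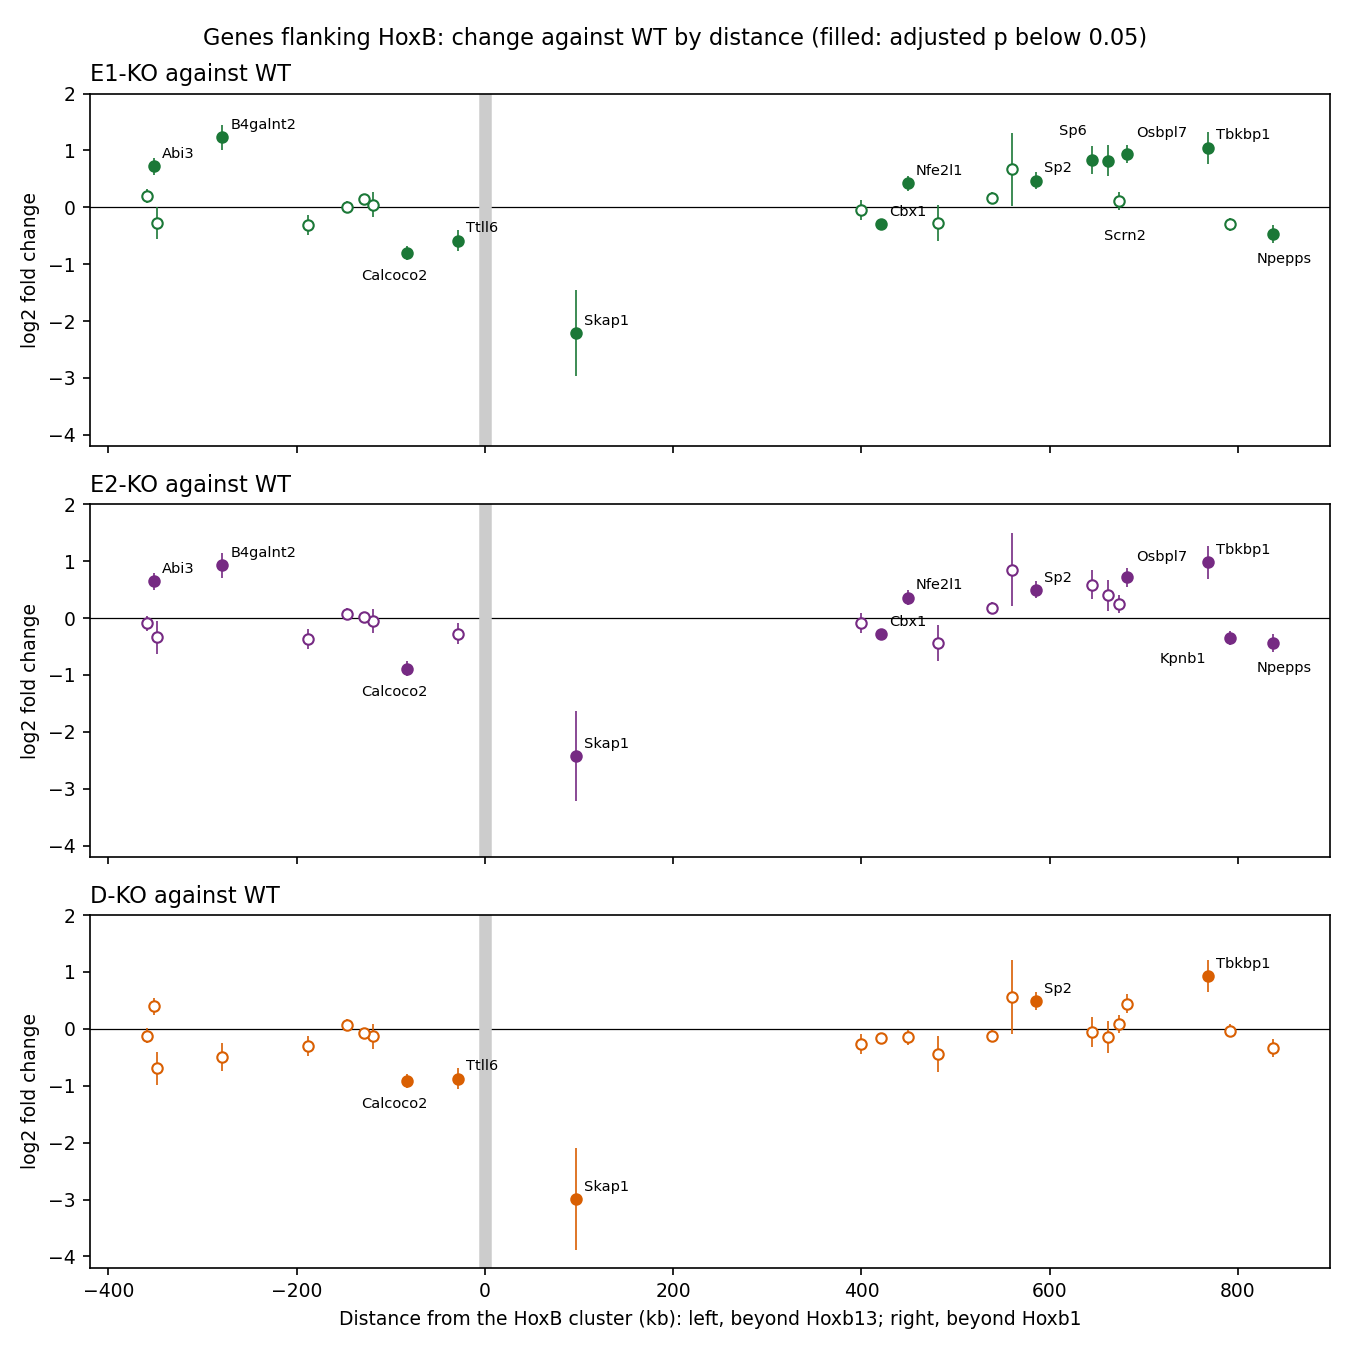
Log2 fold change against WT of the 25 tested flanking genes (y axis, bars: standard error) by distance from the HoxB cluster in kb (x axis; the grey line is the cluster, genes beyond Hoxb13 to the left, beyond Hoxb1 to the right), for E1-KO, E2-KO and D-KO from top to bottom. Filled points have an adjusted p below 0.05. Ttll6 and Calcoco2, the listed genes nearest the cluster beyond Hoxb13, lie below 0 in each panel, with Ttll6 not called in E2-KO. Skap1, the nearest listed gene beyond Hoxb1, was tested only because it was high in WT. Atp5g1, Ube2z and Snf8, the next listed genes after Calcoco2, lie between -0.13 and 0.14 and are not called. Tbkbp1, 768 kb away, lies at 1.05, 0.98 and 0.93.

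On the Hoxb13 side the 2 listed genes nearest the cluster fell against WT, Calcoco2 in all 3 KO genotypes and Ttll6 in E1-KO and D-KO. The nearest listed gene on the Hoxb1 side, Skap1, had few counts and is given first, by its counts. Skap1, which encodes a Src kinase associated adaptor of T cell adhesion, is a gene of 294.5 kb on the plus strand (96464593 to 96759130) beyond Hoxb1. It was barely expressed, with 3, 6 and 2 counts in the E1-KO libraries, 1, 0 and 8 in E2-KO, 1, 3 and 2 in D-KO and 23, 13 and 15 in WT. Each WT library was above each KO library. Skap1 was over the minimum of the filter on low counts in all 3 WT libraries and in none of the KO libraries, so it was tested only because it was high in WT, and its test values are given without being read as support for a fall. The log2 fold change was -2.21 ± 0.75 in E1-KO (adjusted p = 0.0258), -2.43 ± 0.80 in E2-KO (adjusted p = 0.0195) and -2.99 ± 0.90 in D-KO (adjusted p = 0.0135). With every gene of at least 1 count tested, so that no filter acted, the adjusted p was 0.0101, 0.00541 and 0.00135. As a ratio of summed counts, scaled to library size, this was 11 counts in E1-KO over 51 in WT (ratio 0.218, exact 95% interval 0.103 to 0.424), 9 in E2-KO over the same 51 (0.189, 0.0820 to 0.389) and 6 in D-KO (0.124, 0.0434 to 0.288). The intervals cover counting error only.

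The values of Skap1 rest on few reads. Its call for E1-KO was lost with limma and weights per genotype (adjusted p = 0.101), or leaving out WT replicate 1, E1-KO replicate 1 or E1-KO replicate 3 (log2 fold change -2.72 to -1.88 over the 12 fits that leave out a library), that in E2-KO without WT replicate 1, E2-KO replicate 1 or E2-KO replicate 2 (-4.69 to -1.88), and that in D-KO with limma (adjusted p = 0.0526) and without D-KO replicate 1 or 3 (-3.40 to -2.67). With WT replicate 2 as the only WT library the values were -1.41, -1.64 and -2.21. The lincRNA 2010300F17Rik lies inside Skap1 on the opposite strand (96712982 to 96747436) and shares 186 exon bases with it, 2.49% of the exon bases of Skap1. Without the strand setting it is not known whether reads of these bases were told apart. The lincRNA had 2, 1 and 2 counts in E1-KO, 2, 0 and 3 counts in E2-KO, 2, 5 and 4 counts in D-KO and 13, 12 and 11 in WT, all WT libraries being higher, and was too low to be tested. Of 8 markers of T cells and other blood cells, the summed level was 38.0 to 42.4 CPM in E1-KO, 41.1 to 44.0 in E2-KO, 33.0 to 33.7 in D-KO and 27.8 to 43.8 in WT. Of the 5 tested, Cd3e (-1.50 and -1.40) and Itgam (-2.19 and -2.05) fell in E1-KO and E2-KO while Lck rose (0.84 and 0.83). Itgam also fell in D-KO (-1.52). Beside these calls, 34.2%, 35.3% and 22.8% of all tested genes were called in E1-KO, E2-KO and D-KO. The part of these markers in the values of Skap1 was not tested. Ptprc, the pan-leukocyte CD45, had 2 counts in WT and 0 in each KO genotype, and Cd3g was at 0 in E1-KO and WT. Skap2, the paralogue of Skap1, was at -0.33, -0.30 and -0.42 in E1-KO, E2-KO and D-KO against WT and was not called.

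Snx11, a sorting nexin of endosomes, is the next gene beyond Skap1, 399 kb from the cluster. It stood at 36.9, 39.7 and 39.1 CPM in E1-KO, 39.0, 38.7 and 35.0 CPM in E2-KO, 31.9, 34.1 and 33.4 CPM in D-KO and 40.5, 51.6 and 26.6 CPM in WT. The WT libraries spanned those of the KO genotypes, and no comparison was called in the fit of all libraries (-0.04, -0.08 and -0.26 against WT). With GC and length trends removed, Snx11 was called lower in E2-KO (-0.42) and D-KO (-0.43) and not in E1-KO (-0.34). With only the 6 libraries compared it was lower in D-KO than in E1-KO (-0.22, adjusted p = 0.0202).

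On the Hoxb13 side the nearest gene is Ttll6, a ligase that adds glutamate chains to tubulin in cilia, 28.9 kb from the cluster on the plus strand (96133786 to 96165451). It stood at 16.5, 17.9 and 13.1 CPM in E1-KO, 19.6, 17.8 and 21.4 CPM in E2-KO, 13.9, 11.8 and 13.1 CPM in D-KO and 26.5, 27.2 and 17.2 CPM in WT. The D-KO libraries were all below WT. WT replicate 3 was below all E2-KO libraries and below the highest E1-KO library. Ttll6 fell in D-KO (-0.88 ± 0.18, adjusted p = 0.00363) and in E1-KO (-0.58 ± 0.18, adjusted p = 0.0225), and was not called in E2-KO (-0.27 ± 0.18, 95% interval -0.69 to 0.14). The fall in D-KO was called in each of the alternative analyses that kept at least 2 WT libraries. That for E1-KO was lost with limma (adjusted p = 0.0814), with only the 6 libraries compared (adjusted p = 0.115), with library totals as the only scaling (adjusted p = 0.0809), or leaving out WT replicate 1, E1-KO replicate 1 or E1-KO replicate 3 (-0.76 to -0.46).

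Calcoco2, the autophagy receptor NDP52, lies next to Ttll6 on the minus strand (96099326 to 96111964), 82.4 kb from the cluster, and fell in all 3 genotypes. It stood at 196, 200.2 and 215 CPM in E1-KO, 201, 185 and 189.9 CPM in E2-KO, 191, 190.1 and 184 CPM in D-KO and 430.2, 345 and 289.7 CPM in WT. All 9 KO libraries lay in a narrow range below the lowest WT library, although WT itself varied from 289.7 to 430.2 CPM. The log2 fold change was -0.80 ± 0.13 in E1-KO (adjusted p = 0.000316), -0.89 ± 0.13 in E2-KO (adjusted p = 0.000158) and -0.92 ± 0.13 in D-KO (adjusted p = 0.000183). These 3 calls held in each alternative analysis that kept at least 2 WT libraries, including the removal of trends with GC content and length (-0.86, -0.99 and -1.003). The values were -0.75, -0.85 and -0.88 with WT replicate 2 as the only WT library. Between D-KO and E1-KO the difference was -0.11 ± 0.13 (95% interval -0.40 to 0.18), and between D-KO and E2-KO it was -0.03 ± 0.13 (-0.32 to 0.26), neither called. The GENCODE starts of Calcoco2 and Ttll6 are 21.8 kb apart and the genes diverge from each other, whereas in RefSeq the 2 genes share 104 bases; which annotation was used for the counts is not given in the sources used here. Among the other autophagy receptors, Calcoco1 rose (0.59, 0.64 and 0.56 in E1-KO, E2-KO and D-KO against WT) and Sqstm1 fell in D-KO (-0.32). Tax1bp1, Optn and Nbr1 were not called, where 34.2%, 35.3% and 22.8% of all tested genes were called in the same order.

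**Figure D2:**
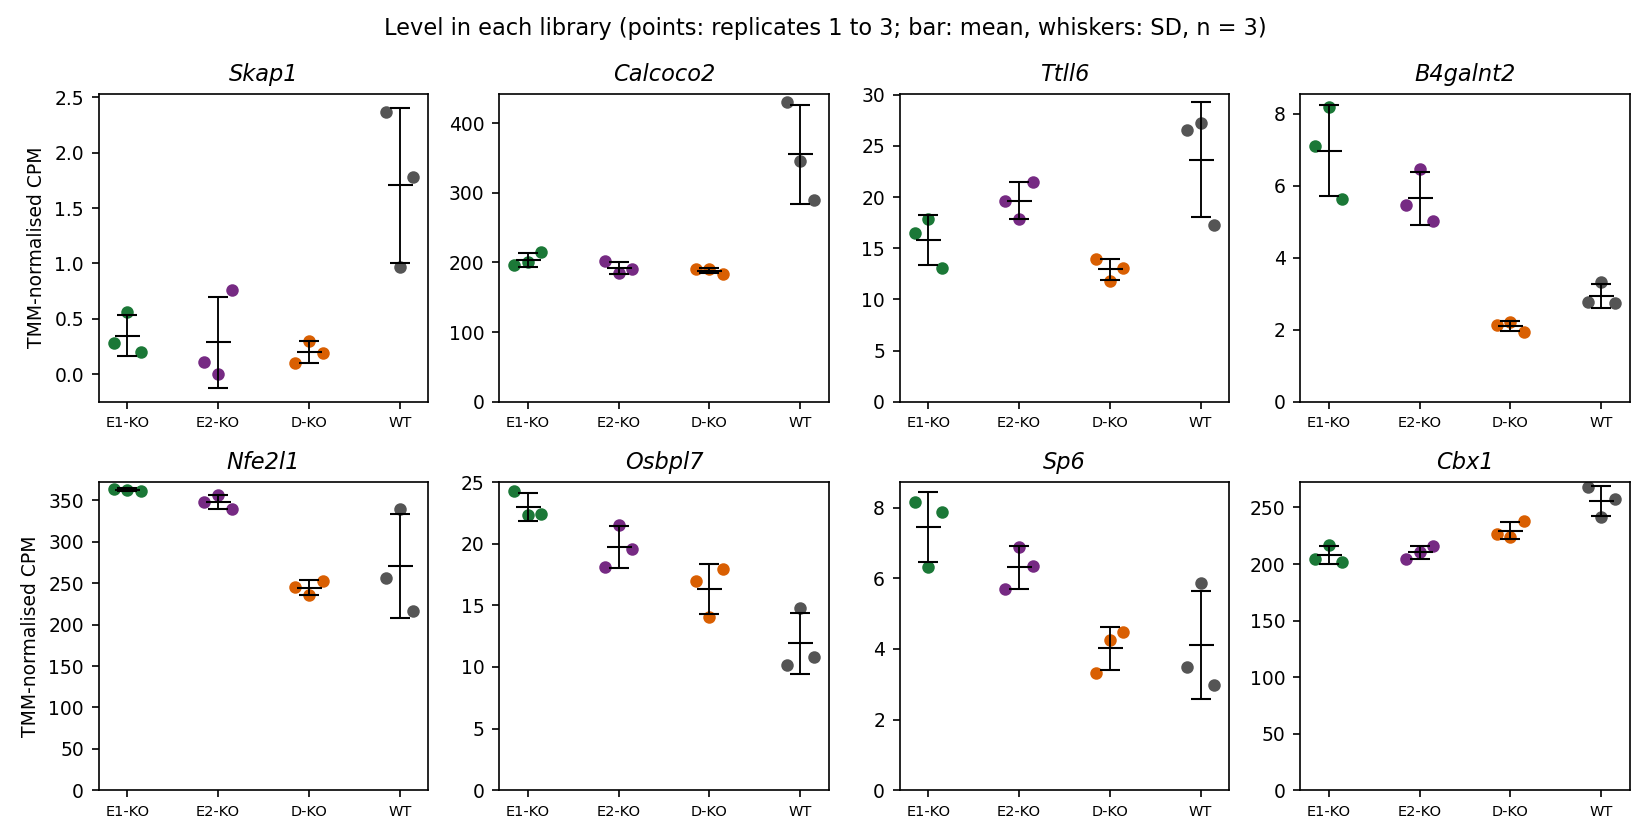
TMM-normalised CPM (y axis) of 8 flanking genes in each of the 12 libraries, by genotype (x axis); points are replicates 1 to 3, the bar is the mean and the whiskers the SD (n = 3). Calcoco2 lies between 184 and 215 CPM in the 9 KO libraries and between 289.7 and 430.2 CPM in WT, and B4galnt2 lies above 5 CPM in E1-KO and E2-KO and at most at 3.34 CPM in D-KO and WT.

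Farther out on the Hoxb1 side, Cbx1 fell in both single deletions, Sp2 rose in all 3 genotypes, Nfe2l1 in both single deletions and Sp6 in E1-KO. With trends of GC content and length removed, only the call of Sp2 in D-KO held among these. Cbx1, the heterochromatin protein HP1 beta, stood at 204, 217 and 202 CPM in E1-KO, 204, 211 and 216 CPM in E2-KO, 227, 224 and 238 CPM in D-KO and 268, 242 and 258 CPM in WT. Each WT library was above each KO library. Cbx1 fell in E1-KO (-0.30 ± 0.09, adjusted p = 0.0204) and E2-KO (-0.28 ± 0.09, adjusted p = 0.0272), and was not called in D-KO (-0.16 ± 0.09). Of the other HP1 genes, Cbx3 fell in E1-KO and E2-KO (-0.76 and -0.71) and Cbx5 in E2-KO (-0.58). Beside them, 18.5% and 18.6% of all tested genes fell in E1-KO and E2-KO. With trends of GC content and length removed, the change of Cbx1 was -0.10 and -0.13, not called. The call in E1-KO was lost without E1-KO replicate 1 or 3 (-0.34 to -0.26) and that in E2-KO without any one E2-KO library (-0.32 to -0.25). Both calls were also lost with limma (adjusted p = 0.0668 and 0.0909) and with only the 6 libraries compared (adjusted p = 0.172 and 0.170). Library totals (adjusted p = 0.104 and 0.0822) and no filter (adjusted p = 0.118 and 0.173) ended them too.

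Sp2 and Sp6 are zinc finger factors of the Sp family; Sp6, or epiprofin, is known from tooth and skin. Sp2 stood at 49.5, 49.7 and 54.8 CPM in E1-KO, 51.9, 53.3 and 51.8 CPM in E2-KO, 52.5, 51.2 and 52.5 CPM in D-KO and 32.9, 48.6 and 29.2 CPM in WT. The KO libraries were all above WT, with WT replicate 2 close below them. Sp2 rose in E1-KO (0.47 ± 0.15, adjusted p = 0.0273), E2-KO (0.50 ± 0.15, adjusted p = 0.0209) and D-KO (0.49 ± 0.15, adjusted p = 0.0316), and with WT replicate 2 as the only WT library the values were 0.09, 0.11 and 0.10. With GC and length trends removed they were 0.14 for E1-KO and 0.11 for E2-KO, not called, while D-KO was at 0.28, called. The calls were also lost without WT replicate 1 or 3 alone, with 0.33 to 0.72 for E1-KO, 0.35 to 0.75 for E2-KO and 0.34 to 0.74 for D-KO over the fits that leave out a library. They were lost as well without any one E1-KO library in E1-KO, E2-KO replicate 1 or 2 in E2-KO, and any one D-KO library in D-KO. All 3 calls were lost with limma (adjusted p = 0.0712, 0.0554 and 0.0836) and with only the 6 libraries compared (adjusted p = 0.135, 0.122 and 0.158). Library totals also ended the call in D-KO (adjusted p = 0.0705). Sp6 stood at 8.15, 6.32 and 7.86 CPM in E1-KO, 5.68, 6.88 and 6.36 CPM in E2-KO, 3.33, 4.25 and 4.48 CPM in D-KO and 3.50, 5.86 and 2.97 CPM in WT. Its E1-KO libraries were above all of WT and of D-KO, and it rose in E1-KO against WT (0.83 ± 0.25, adjusted p = 0.0195) but was not called in E2-KO (0.59 ± 0.25) or D-KO (-0.06 ± 0.26). The call did not hold without WT replicate 1, E1-KO replicate 1 or E1-KO replicate 3 (0.65 to 1.20), nor with trends removed (0.42, adjusted p = 0.117). It was lost too with limma (adjusted p = 0.230) and with only the 6 libraries compared (adjusted p = 0.0892). The processed transcript Gm11532 covers 86.7% of the exon bases of Sp6 on the opposite strand. Whether the reads of the 2 genes were told apart is not known, since the strand setting is not given. Of 7 tested Sp factors in all, 2 rose and 4 fell in E1-KO, 1 rose and 3 fell in E2-KO, and 1 rose and 1 fell in D-KO, with list medians of -0.52 for E1-KO, -0.35 for E2-KO and -0.24 for D-KO, beside 15.7% and 18.5%, 16.7% and 18.6%, and 10.6% and 12.2% of all tested genes higher and lower. Sp8, a factor of limb and brain, changed most among these, by -3.09 for E1-KO, -1.03 for E2-KO and -1.002 for D-KO.

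Nfe2l1 encodes NRF1, the membrane-bound factor that drives proteasome genes when proteasomes fall short. It stood at 364, 363 and 361 CPM in E1-KO, 349, 357 and 339 CPM in E2-KO, 245, 235 and 253 CPM in D-KO and 257, 340.0 and 216 CPM in WT. The E1-KO libraries were above all of WT, those of E2-KO reached into the WT range, and those of D-KO lay inside it. Nfe2l1 rose in E1-KO (0.42 ± 0.13, adjusted p = 0.0261) and E2-KO (0.36 ± 0.13, adjusted p = 0.0494) and was not called in D-KO (-0.15 ± 0.13). With WT replicate 2 alone the values in E1-KO and E2-KO were 0.11 and 0.04, and with GC and length trends removed they were 0.15 and 0.08, not called. The call for E1-KO did not hold without WT replicate 1 or any one E1-KO library (0.29 to 0.62). With only the 6 libraries compared it was lost as well (adjusted p = 0.146). Of the 12 fits that leave out a library, only that without WT replicate 2 kept the call in E2-KO (0.22 to 0.56). The call in E2-KO was kept with limma (adjusted p = 0.0314) and with no filter (adjusted p = 0.0223). It was lost with library totals (adjusted p = 0.0577) and with only the 6 libraries compared (adjusted p = 0.216). In a list of 18 genes of NRF1 and the proteasome, 1 rose and 8 fell in E1-KO, 1 rose and 6 fell in E2-KO, and 1 rose and none fell in D-KO. The medians of this list were -0.08 for E1-KO, -0.05 for E2-KO and -0.13 for D-KO, and 18.5%, 18.6% and 12.2% of all tested genes fell. The member that rose in E1-KO and E2-KO is Nfe2l1 itself, and Psmd1, a subunit of the proteasome's regulatory particle, fell by 1.12 in E1-KO and 1.05 in E2-KO. Cdk5rap3, a partner of the UFM1 ligase, was called in no comparison of 2 genotypes in the fit of all libraries, with means of 62.4 CPM in D-KO to 76.8 CPM in E2-KO. Of the 7 genes of the UFM1 pathway, Ufm1 fell in E1-KO (-0.64) and E2-KO (-0.34), and Ufsp2 fell in E1-KO (-0.60). Ddrgk1 rose in E2-KO (0.39), and none passed in D-KO. Of all tested genes, 34.2%, 35.3% and 22.8% were called in E1-KO, E2-KO and D-KO. The medians of the 7 were 0.10 for E1-KO, 0.05 for E2-KO and 0.01 for D-KO.

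Osbpl7, an oxysterol-binding protein of the family that carries sterols between membranes, stood at 24.3, 22.3 and 22.4 CPM in E1-KO, 18.1, 21.5 and 19.5 CPM in E2-KO, 16.96, 14.1 and 17.9 CPM in D-KO and 10.2, 14.8 and 10.8 CPM in WT. Each E1-KO and E2-KO library was above each WT library, while D-KO replicate 2 lay below WT replicate 2. Osbpl7 rose in E1-KO (0.94 ± 0.16, adjusted p = 0.000631) and E2-KO (0.72 ± 0.16, adjusted p = 0.00425) and was not called in D-KO (0.44 ± 0.16). The rise in E1-KO was the only rise against WT that was called in each of the alternative analyses with at least 2 WT libraries, and that in E2-KO was lost with limma and with GC and length trends removed (0.27).

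Tbkbp1, an adaptor of the kinase TBK1 in innate immune signalling, stood at 14.8, 14.04 and 17.6 CPM in E1-KO, 15.7, 15.1 and 13.6 CPM in E2-KO, 13.4, 16.3 and 13.1 CPM in D-KO and 5.14, 12.2 and 4.52 CPM in WT. The KO libraries were all above WT, with WT replicate 2 far above the other WT libraries. Tbkbp1 rose in E1-KO (1.05 ± 0.28, adjusted p = 0.0115), E2-KO (0.98 ± 0.28, adjusted p = 0.0165) and D-KO (0.93 ± 0.28, adjusted p = 0.0295). With WT replicate 2 as the only WT library the values were 0.35, 0.27 and 0.22. Without WT replicate 1 alone all 3 calls were lost (0.81 to 1.67 for E1-KO, 0.73 to 1.61 for E2-KO and 0.68 to 1.56 for D-KO over the fits that leave out a library). The call in E2-KO was also lost without E2-KO replicate 1, and that in D-KO without WT replicate 3 or any one D-KO library. Limma ended the calls in E2-KO (adjusted p = 0.0616) and D-KO (adjusted p = 0.107). Library totals ended that in D-KO (adjusted p = 0.0539), and trends removed that in E2-KO (adjusted p = 0.0559). With only the 6 libraries compared all 3 were lost (adjusted p = 0.0742, 0.0876 and 0.138).

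Scrn2, a secernin of little-known function, stood at 12.2, 12.9 and 11.1 CPM in E1-KO, 7.83, 7.82 and 11.4 CPM in E2-KO, 7.87, 5.77 and 5.07 CPM in D-KO and 4.63, 10.1 and 5.47 CPM in WT. It rose in E1-KO (0.82 ± 0.27, adjusted p = 0.0301) and was not called in E2-KO (0.40 ± 0.28) or D-KO (-0.14 ± 0.28), and WT replicate 2 lay inside the E2-KO range. The value in E1-KO with WT replicate 2 alone was 0.27. The call was lost with trends removed (0.33, adjusted p = 0.248), or leaving out WT replicate 1, WT replicate 3 or any one E1-KO library (0.62 to 1.26). It was lost as well with limma (adjusted p = 0.161) and with only the 6 libraries compared (adjusted p = 0.0873).

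Kpnb1, importin beta, which carries cargo through the nuclear pore, was the most abundant flanking gene per length. It stood at 1236, 1265 and 1235 CPM in E1-KO, 1195, 1214 and 1197 CPM in E2-KO, 1499, 1514 and 1486 CPM in D-KO and 1489, 1282 and 1824 CPM in WT. The E1-KO and E2-KO libraries were all below WT, and those of D-KO lay inside the WT range. Kpnb1 fell in E2-KO (-0.35 ± 0.12, adjusted p = 0.0336), and -0.30 ± 0.12 in E1-KO and -0.03 ± 0.12 in D-KO were not called. The call in E2-KO was lost without any one KO library (-0.46 to -0.21), and the value with WT replicate 2 alone was -0.09. With trends removed it was -0.23, not called, and the call was also lost with only the 6 libraries compared (adjusted p = 0.182). Among 10 genes of nuclear import 7 fell for E1-KO, 8 for E2-KO and 1 for D-KO, and none rose, beside 18.5%, 18.6% and 12.2% of all tested genes that fell. The medians of this list were -0.42 for E1-KO, -0.47 for E2-KO and -0.17 for D-KO, and no test of the list was run. Ipo7, an importin for ribosomal proteins among other cargo, was at -0.80 for E1-KO and -0.68 for E2-KO, and Tnpo1, transportin, at -0.69 in D-KO, the only one called there. Npepps, a cytosolic aminopeptidase, had means of 192 ± 14.6 CPM in E1-KO, 198 ± 7.98 in E2-KO, 211 ± 4.77 in D-KO and 267 ± 75.2 in WT (SD, n = 3 each). It fell in E1-KO (-0.47 ± 0.15, adjusted p = 0.0289) and E2-KO (-0.44 ± 0.15, adjusted p = 0.0410), but its WT mean rests on WT replicate 3, at 349.6 CPM. With WT replicate 2 as the only WT library, at 202 CPM, the values were -0.06 and -0.03. Without WT replicate 3 or any one E1-KO library the call in E1-KO was lost (-0.64 to -0.23), as with only the 6 libraries compared (adjusted p = 0.152). Of the 12 fits that leave out a library, only that without WT replicate 2 kept the call in E2-KO (-0.60 to -0.20). With no filter the call in E2-KO was kept (adjusted p = 0.0128). It was lost with trends removed (-0.29) and with limma (adjusted p = 0.0509). Library totals (adjusted p = 0.0510) and only the 6 libraries compared (adjusted p = 0.161) also ended it.

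The remaining tested genes of this side were called nowhere in the fit of all libraries. Mrpl10, a protein of the mitochondrial ribosome, averaged 57.2 ± 4.04 CPM in E1-KO, 62.6 ± 2.22 in E2-KO, 56.5 ± 2.04 in D-KO and 52.8 ± 15.7 in WT. Copz2, a zeta subunit of the COPI coat, averaged 2.23 ± 0.447, 2.00 ± 0.134, 2.00 ± 0.112 and 2.67 ± 1.01 CPM in the same order. Of the 9 COPI genes 3 fell in E1-KO (Arcn1, Copb1 and Copb2), Arcn1 and Copb1 also fell in E2-KO, and none passed in D-KO, with medians of the 9 of -0.28 for E1-KO, -0.14 for E2-KO and -0.17 for D-KO, beside 18.5%, 18.6% and 12.2% of all tested genes that fell. Prr15l, a proline-rich protein, had 2 to 19 counts per library, with 4, 4 and 19 in D-KO, so that its interval against WT ran from -0.93 to 2.08 on the log2 scale. Lrrc46, not tested, had 15 counts over the E1-KO libraries, 14 in E2-KO, 27 in D-KO and 32 in WT.

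On the Hoxb13 side beyond Calcoco2, B4galnt2 differed between the single deletions and D-KO. It encodes a glycosyltransferase that makes the Sda (Cad) blood group glycan, and lies on the minus strand 279 kb from the cluster (95865943 to 95914891). It stood at 7.11, 8.18 and 5.65 CPM in E1-KO, 5.47, 6.47 and 5.03 CPM in E2-KO, 2.12, 2.23 and 1.95 CPM in D-KO and 2.78, 3.34 and 2.73 CPM in WT. The E1-KO and E2-KO libraries were all above WT, and the D-KO libraries were all below WT. B4galnt2 rose in E1-KO (1.23 ± 0.22, adjusted p = 0.000799) and E2-KO (0.92 ± 0.22, adjusted p = 0.00592), while D-KO was not called (-0.50 ± 0.24, 95% interval -1.07 to 0.06). In counts, 219 reads for E1-KO, 166 for E2-KO and 63 for D-KO stand beside 95 in WT. With limma and weights per genotype neither rise was called, and with GC and length trends removed they were 1.15 and 0.79, both called. The antisense gene Gm11534, which shares 15.3% of the exon bases of B4galnt2, rose as well, by 1.56 for E1-KO and 1.50 for E2-KO. Whether reads of the 2 genes in the shared bases were told apart is not known without the strand setting. With WT replicate 2 alone the value of B4galnt2 was 1.08 for E1-KO, and for E2-KO it was 0.76.

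Abi3, an adaptor of actin remodelling in blood and microglia, stood at 19.5, 18.0 and 15.7 CPM in E1-KO, 16.9, 18.1 and 15.7 CPM in E2-KO, 13.3, 15.2 and 14.3 CPM in D-KO and 10.2, 12.2 and 9.86 CPM in WT. Each KO library was above each WT library. Abi3 rose in E1-KO (0.72 ± 0.15, adjusted p = 0.00217) and E2-KO (0.65 ± 0.15, adjusted p = 0.00445) and was not called in D-KO (0.40 ± 0.15). With GC and length trends removed the values were 0.22 and 0.09, not called. Both calls were also lost with limma and weights per genotype (adjusted p = 0.0936 and 0.141). With only the 6 libraries compared the call in E1-KO was kept (adjusted p = 0.0345) and that in E2-KO was lost (adjusted p = 0.0504). Exons of Abi3 overlap those of Zfp652, Phospho1 and Gngt2 on the opposite strand, by 70.1%, 41.1% and 5.63% of its exon bases. Whether such reads were assigned by strand is not known, since the strand setting is not given. Zfp652, a zinc finger repressor, averaged 69.9 ± 2.79 CPM in E1-KO, 57.1 ± 5.45 in E2-KO, 56.0 ± 2.20 in D-KO and 61.0 ± 11.6 in WT, and Gngt2, a gamma subunit of G proteins, 3.63 ± 0.436, 3.50 ± 0.931, 2.72 ± 0.341 and 4.40 ± 1.46. Neither was called in the fit of all libraries, although with GC and length trends removed Zfp652 rose in E1-KO (0.47) and E2-KO (0.33), and Gngt2 fell in D-KO (-0.87).

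The further genes of this side were called in no comparison in the fit of all libraries. Snf8, a subunit of the ESCRT-II complex, averaged 43.9 ± 1.73 CPM in E1-KO, 46.1 ± 3.54 in E2-KO, 45.7 ± 2.35 in D-KO and 43.7 ± 2.74 in WT, with a 95% interval of -0.17 to 0.31 for D-KO against WT on the log2 scale. Ube2z, a ubiquitin-conjugating enzyme that ends 1 base from Snf8, averaged 210.4 ± 7.85, 194 ± 10.97, 182 ± 8.03 and 191 ± 10.7 CPM. Atp5g1, a gene for subunit c of ATP synthase, averaged 117 ± 5.94, 109 ± 6.55, 103 ± 6.71 and 113 ± 49.9 CPM, its WT libraries running from 71.3 to 168 CPM. Igf2bp1, an RNA-binding protein of embryonic tissues, averaged 501 ± 13.8, 479 ± 11.4, 502 ± 12.4 and 621 ± 224 CPM, with WT replicate 3 at 877 CPM far above all the others. Its paralogue Igf2bp2 rose in all 3 genotypes (0.85, 0.98 and 1.21), as did Atp5g2, a gene for the same ATP synthase subunit (0.62, 0.70 and 0.55). Gip, a gut hormone, had 2 counts in E1-KO, 3 in E2-KO, 3 in D-KO and 0 in WT, where 3 counts over the group correspond to 0.0922 CPM. Phospho1, a phosphatase of bone mineral, had 6 counts in E1-KO, 5 in E2-KO, 1 in D-KO and 6 in WT, and lies within exons of Zfp652 for 89.6% of its bases.

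**Figure D3:**
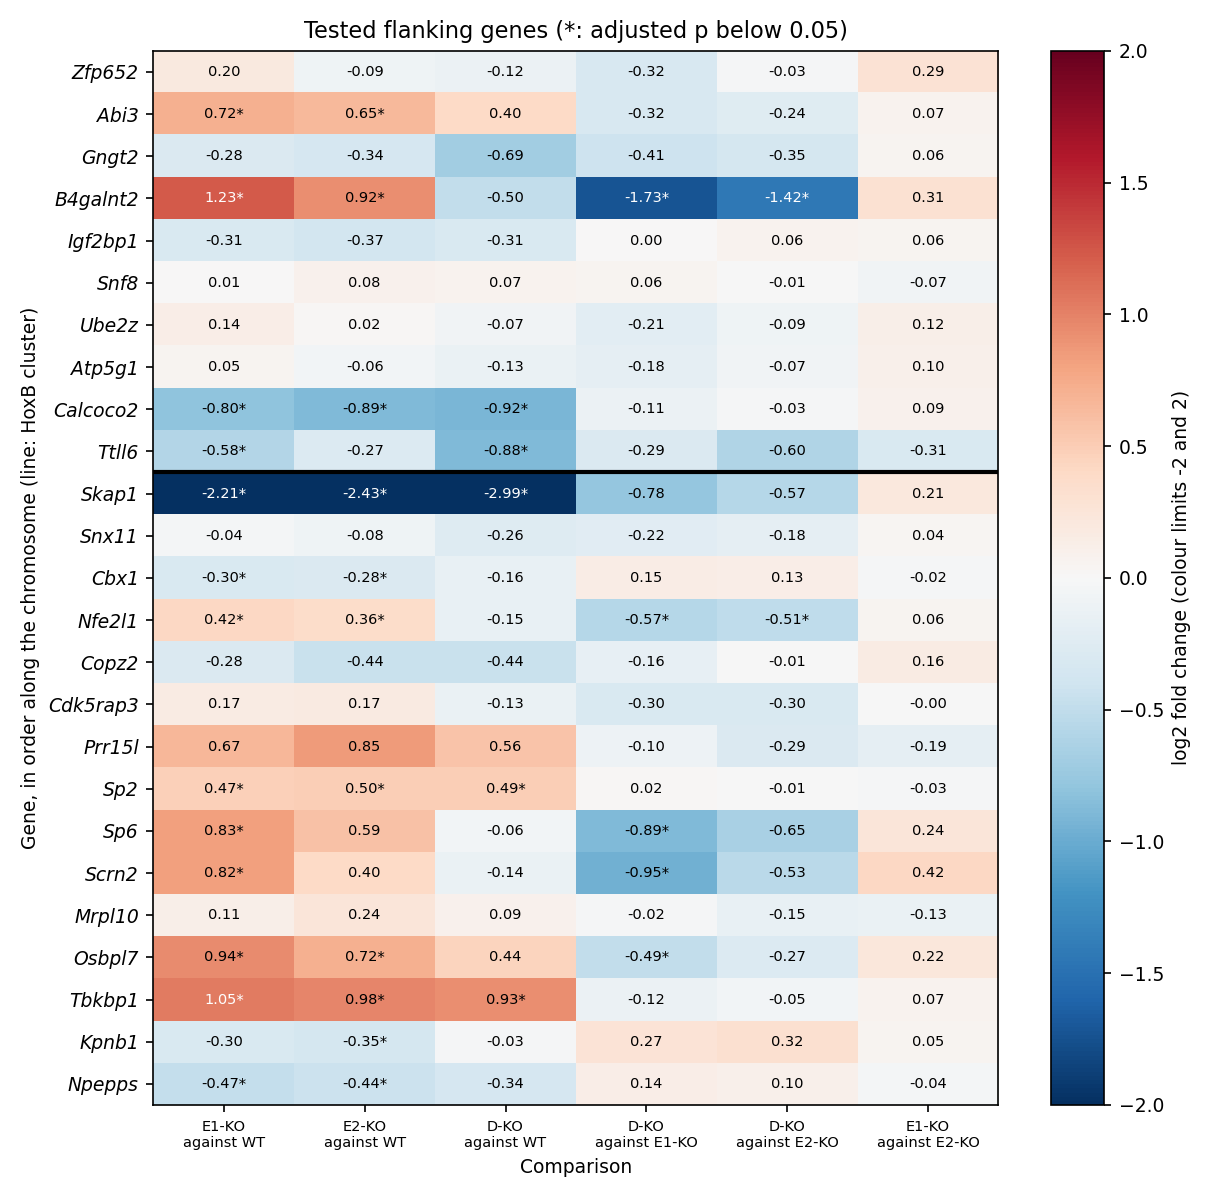
Log2 fold change of the 25 tested flanking genes (rows, in order along the chromosome; the line marks the HoxB cluster) in the 6 comparisons of genotypes (columns), as colour and number; an asterisk marks an adjusted p below 0.05. The comparisons with WT hold 13, 11 and 5 asterisks and share the WT libraries; D-KO against E1-KO holds 5, D-KO against E2-KO 2 and E1-KO against E2-KO none.

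The comparisons between KO genotypes do not use the WT means, although the fit shares its estimate of spread with WT. D-KO was lower than E1-KO in 5 of the 25 genes, beside 7.52% of all tested genes, and higher in none, beside 8.43%, with 15.9% called in all. It was lower than E2-KO in 2, beside 2.64%, and higher in none, beside 1.84%, with 4.48% called in all. The libraries did not overlap for 14 of the 25 between D-KO and E1-KO, beside 54.4% of all genes, and for 12 between D-KO and E2-KO, beside 45.8%. B4galnt2 fell most, with a log2 fold change of -1.73 ± 0.23 against E1-KO (adjusted p = 0.000315) and -1.42 ± 0.23 against E2-KO (adjusted p = 0.00403). The D-KO libraries, at 2.12, 2.23 and 1.95 CPM, were all under the lowest of the other 6 KO libraries, at 5.03 CPM. Nfe2l1 was lower by 0.57 than in E1-KO (-0.57 ± 0.13, adjusted p = 0.0122) and by 0.51 than in E2-KO (-0.51 ± 0.13, adjusted p = 0.0454). Scrn2 (-0.95 ± 0.27, adjusted p = 0.0296), Sp6 (-0.89 ± 0.25, adjusted p = 0.0277) and Osbpl7 (-0.49 ± 0.16, adjusted p = 0.0483) were lower in D-KO than in E1-KO only, but whether they differ in this from E2-KO is the comparison of E1-KO with E2-KO, which called none of them (0.42, 0.24 and 0.22). Only the 2 calls of B4galnt2 held in each alternative analysis of these comparisons, and the calls of Osbpl7 against E1-KO and of Nfe2l1 against E2-KO were held in 3 of the 12 fits that leave out a library, those without a WT library. The call of Nfe2l1 against E1-KO was lost without D-KO replicate 2 (-0.59 to -0.55), that of Sp6 without E1-KO replicate 1 or 3 or any one D-KO library (-0.99 to -0.77), and that of Scrn2 without any one E1-KO library or D-KO replicate 2 or 3 (-1.16 to -0.82).

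The fit shares 1 estimate of spread among genotypes, and the spread within KO genotypes is far smaller than in WT: the median dispersion was 0.00563 for E1-KO, 0.00774 for E2-KO and 0.00665 for D-KO, against 0.0935 in WT. With only the 6 libraries of the genotypes compared, D-KO differed from E1-KO in 15 of the 25 genes, 3 higher and 12 lower, beside 50.7% of all genes, and from E2-KO in 8, 2 higher and 6 lower, beside 37.3%. The genes higher in D-KO than in E1-KO were Kpnb1, Cbx1 and Npepps. Calcoco2 was lower by 0.11 in D-KO than in E1-KO, and Ttll6 was lower by 0.60 in D-KO than in E2-KO in this fit. Between E1-KO and E2-KO no flanking gene was called in the fit of all libraries, beside 0.596% of all genes (0.322% higher and 0.274% lower), and 4 of the 25 had libraries that did not overlap, beside 34.7% of all genes. In edgeR's test 1 of the 25, Zfp652, had an unadjusted p under 0.05 (0.29 ± 0.13). The fit of those 6 libraries called Zfp652, Scrn2 and Ube2z, each higher in E1-KO, beside 21.4% of all genes, and limma with weights per genotype called 1, beside 16.8%. With limma the counts were 12 in D-KO against E1-KO, beside 47.5% of all genes, and 7 in D-KO against E2-KO, beside 33.9%. With GC and length trends removed D-KO differed from E1-KO in 6, 1 higher and 5 lower, beside 22.1% of all genes. It differed from E2-KO in 3, 1 higher and 2 lower, beside 8.57%. The higher gene was Kpnb1 in both (0.29 and 0.32), and Osbpl7 was no longer called against E1-KO (-0.29). Between E1-KO and E2-KO 0 were called, beside 1.58%.

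Whether D-KO changed as the sum of both single deletions was tested with the interaction, the D-KO change less the sum of the E1-KO and E2-KO changes. It was called for 11 of the 25 genes, beside 35.2% of all tested genes: 3 were positive, beside 18.1%, and 8 negative, beside 17.1%. B4galnt2 had the most negative value, -2.66 ± 0.32 (adjusted p = 4.07e-05), with both single deletions above WT and D-KO below it. Sp6 (-1.47 ± 0.36), Scrn2 (-1.35 ± 0.39), Osbpl7 (-1.21 ± 0.23), Tbkbp1 (-1.09 ± 0.39), Abi3 (-0.96 ± 0.21), Nfe2l1 (-0.93 ± 0.19) and Cdk5rap3 (-0.47 ± 0.15) were also negative. Calcoco2 (0.77 ± 0.18, adjusted p = 0.00471), Kpnb1 (0.62 ± 0.17) and Cbx1 (0.43 ± 0.13) were positive: Calcoco2 fell about as far in D-KO as in either single deletion. For Ttll6 the interaction was near 0 (-0.02 ± 0.26, 95% interval -0.61 to 0.58), and for Skap1 it was not resolved (1.65 ± 1.29). The calls of Nfe2l1, Sp6, Osbpl7, Kpnb1, Calcoco2 and B4galnt2 held in each alternative analysis that kept at least 2 WT libraries, and that of Tbkbp1 in 1 of the 12 fits that leave out a library, the one without WT replicate 2. The call of Cbx1 was lost without E1-KO replicate 1 or 3, E2-KO replicate 1 or 2 or D-KO replicate 3 (0.38 to 0.47), and that of Cdk5rap3 without E1-KO replicate 3, E2-KO replicate 2 or D-KO replicate 2 or 3 (-0.54 to -0.42). With GC and length trends removed 5 of the 11 were not called: Scrn2 (-0.63), Tbkbp1 (-0.36), Abi3 (-0.22), Cbx1 (0.17) and Cdk5rap3 (0.062).

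**Figure D4:**
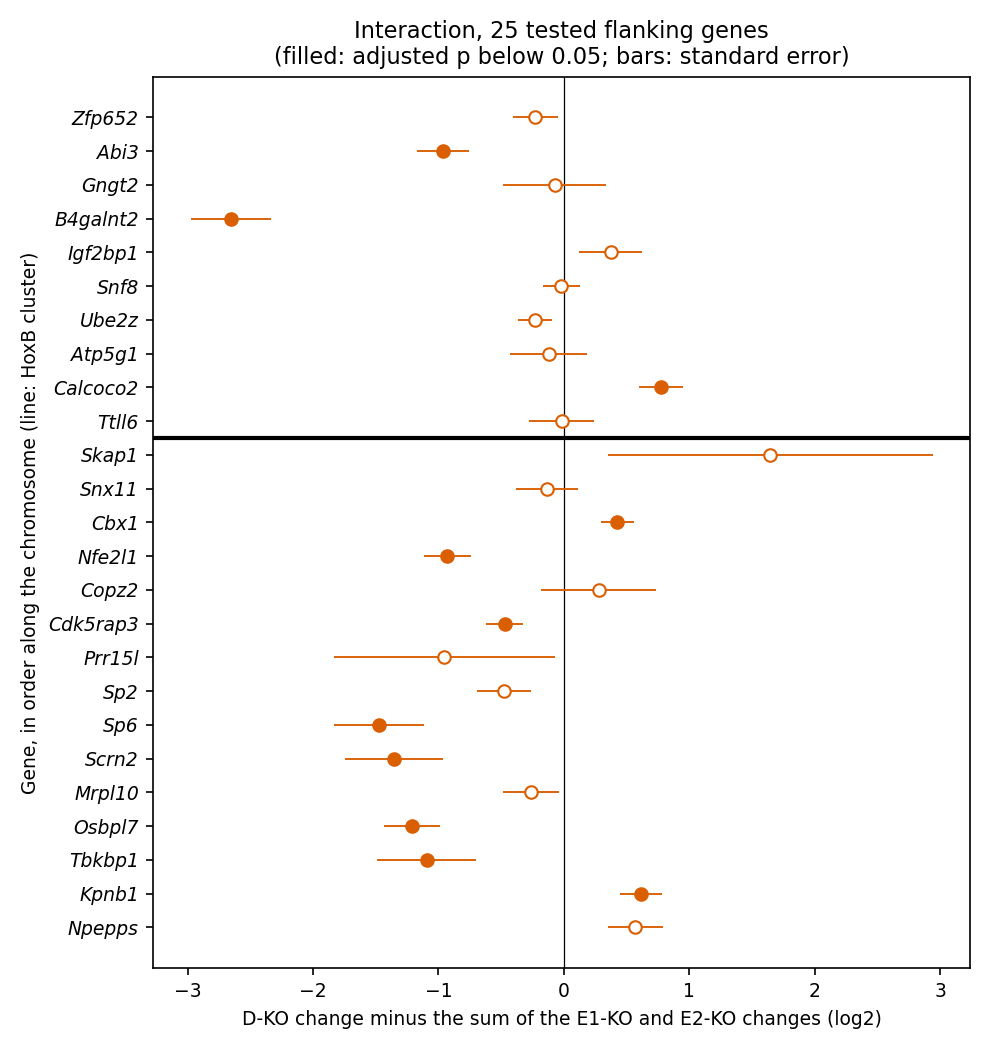
Interaction of the 25 tested flanking genes on the log2 scale (x axis, bars: standard error), in order along the chromosome (y axis; the line marks the HoxB cluster). Filled points have an adjusted p below 0.05; B4galnt2 lies at -2.66, and Calcoco2, Cbx1 and Kpnb1 are the filled points to the right of 0.

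The direction of change against WT went with the GC content of the genes. Among the 25, the Spearman correlation of the log2 fold change with GC content was 0.66 for E1-KO, 0.67 for E2-KO and 0.47 for D-KO, a description over genes that share their libraries, and over 16271 genes it was 0.46, 0.48 and 0.32. For the interaction it was -0.75 among the 25 and -0.47 over all. For D-KO against E1-KO it was -0.35 among the 25 and -0.25 over all, and for D-KO against E2-KO -0.38 and -0.36. Of the 8 genes with a GC content of at least 55%, 6 rose and none fell in E1-KO, beside 31.3% and 5.4% of all genes of this GC content, and of the other 17, 2 rose and 5 fell, beside 11.2% and 22.6%. In E2-KO 4 of the 8 rose and none fell, beside 33.8% and 3.87%, and of the 17, 2 rose and 5 fell, beside 11.7% and 23.1%. In D-KO 2 of the 8 rose and none fell, beside 18% and 4.5%, and of the 17 none rose and 3 fell, beside 8.51% and 14.7%. The genes that fell among the 17 include Skap1 in each genotype, which was tested only because it was high in WT. The interaction was negative in 6 of the 8 and positive in none, beside 33.7% and 4.77%, and of the 17 it was positive in 3 and negative in 2, beside 22.2% and 12.3%. With trends of GC content and length taken out of each library, Tbkbp1, the gene with the highest GC content of the 25 (61.9%), was at 0.58, 0.46 and 0.68 in E1-KO, E2-KO and D-KO, and Abi3 at 0.22, 0.09 and 0.09. Of these, Tbkbp1 in E1-KO and D-KO was called. Calcoco2, with 49.7% GC, was at -0.86, -0.99 and -1.003, called in all 3 KO genotypes. The number of flanking genes called was then 8 for E1-KO, beside 32.7% of all genes, 5 for E2-KO, beside 31.6%, 9 for D-KO, beside 26.5%, and 8 for the interaction, beside 32.9%. The genes called in D-KO with trends removed and not before were Snx11 (-0.43), Nfe2l1 (-0.28), Cdk5rap3 (-0.36) and Gngt2 (-0.87), all lower.

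**Figure D5:**
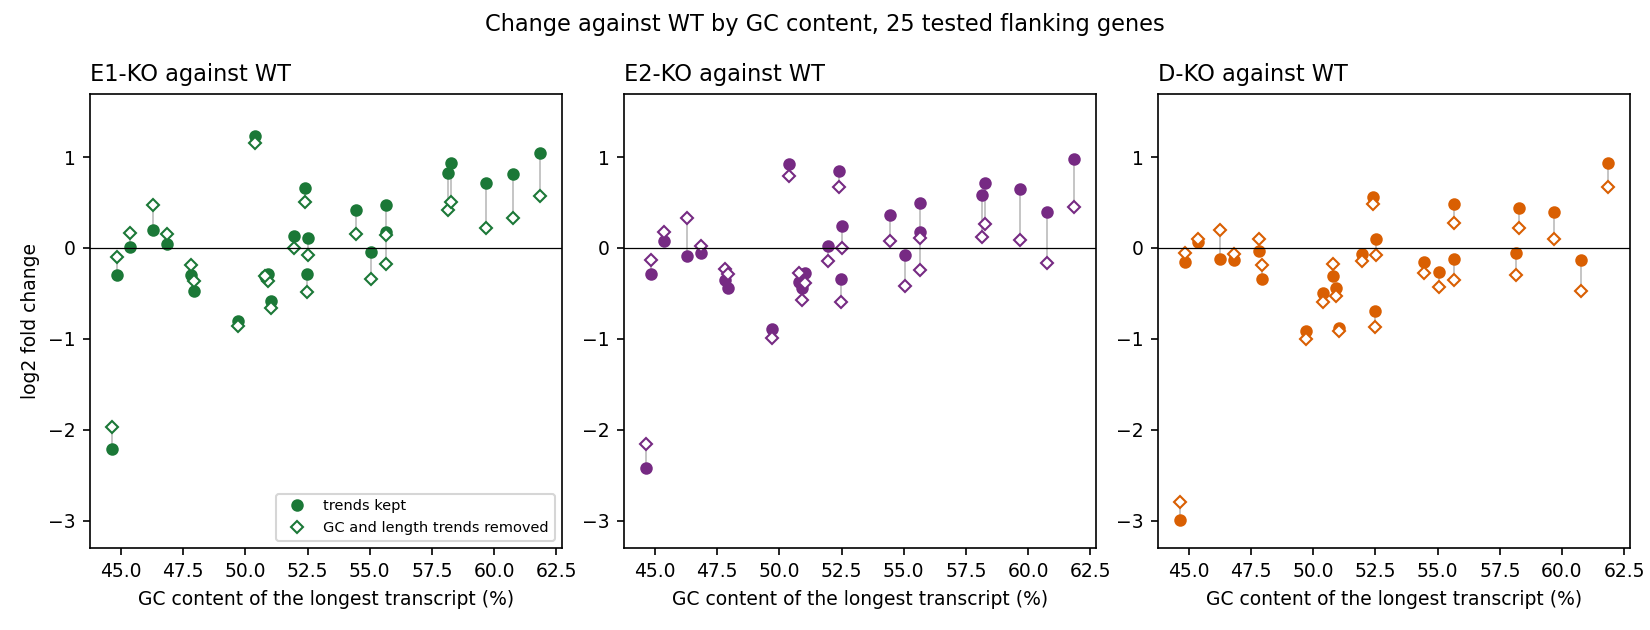
Log2 fold change against WT (y axis) of the 25 tested flanking genes by the GC content of the longest transcript in percent (x axis), for E1-KO, E2-KO and D-KO; filled circles are the values as fitted and open diamonds, joined by a line, those with GC and length trends removed. With the trends removed, Tbkbp1 (61.9% GC) lies at 0.58 and Calcoco2 (49.7% GC) at -0.86 in E1-KO.

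Over the 25 genes, which share their libraries, the Spearman correlation of the absolute log2 fold change with distance from the cluster was 0.14 for E1-KO, 0.21 for E2-KO and -0.23 for D-KO, and that of the signed change was 0.42, 0.36 and 0.55. Of all tested genes, 15.7% rose and 18.5% fell for E1-KO, 16.7% and 18.6% for E2-KO, and 10.6% and 12.2% for D-KO. Beside these shares, 6 genes rose and 3 fell of the 15 tested beyond Hoxb1 in E1-KO, 4 rose and 4 fell in E2-KO, and 2 rose and 1 fell in D-KO. Skap1, tested only because it was high in WT, is among those that fell in each genotype. In D-KO it is the only one that fell on this side. Of the 10 tested beyond Hoxb13, 2 rose and 2 fell in E1-KO, 2 rose and 1 fell in E2-KO, and 2 fell in D-KO. Among the 12 tested protein-coding genes within 1 Mb of the cluster that are not on the list, 1 rose and 2 fell in E1-KO, 1 fell in E2-KO, and 2 rose in D-KO. Tbx21, the T cell factor T-bet, was called higher than WT in E1-KO (1.65 ± 0.60) and D-KO (2.50 ± 0.58), from few reads. WT replicates 1, 2 and 3 held 6, 9 and 0 counts, all under the filter's minimum count of 10. KO libraries ran from 8 counts (E2-KO replicate 1) to 34 (D-KO replicate 2). Tbx21 was therefore tested only through KO libraries, and its values are not read as support for a rise.

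In level, the flanking genes of WT cells covered a wide range. Per kb of exon, Kpnb1 had 232 ± 41.5 CPM and Calcoco2 219 ± 43.6 (SD, n = 3), which overlap within their spread. Igf2bp1 (64.1 ± 23.2), Cbx1 (59.9 ± 3.10), Nfe2l1 (49.8 ± 11.6) and Ube2z (47.9 ± 2.67) followed. B4galnt2 had 1.71 ± 0.195 and Skap1 0.228 ± 0.0944, near the low end with Prr15l, Phospho1 and Gip.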

How the data were processed

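RNA-seq libraries of 4 genotypes with 3 libraries each were used; 10 further samples (4C and ChIP assays) were not analysed here. The deposited values were raw read counts per gene symbol, made by the authors with HISAT2 2.1.0 and HTSeq 0.9.1 on mm10, per the submitters' processing notes. For the gene annotation and the strand setting: not given in the sources used here. Rows that name no gene were kept out of library sizes; reads without a feature came to 1.11 to 1.20 times the counted reads. Of the 52535 symbols, 48108 matched GENCODE M21 and 35103 matched RefSeq GRCm38.p6.

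The members and lists were chosen with earlier results of these data known. From the counts, genes were kept by filterByExpr (minimum count 10), scaled by TMM and tested with edgeR 4.0.16 (R 4.3.3), in a robust quasi-likelihood fit of genotype over all 12 libraries, with a common dispersion of 0.0265. A gene was called at a Benjamini-Hochberg adjusted p below 0.05 over all 16765 tested genes. The fitting was checked on simulated data. Every library's value is given for genes next to the cluster and for genes called in a comparison with libraries that did not overlap; the others are given by means and ranges. SD is over 3 libraries, intervals on summed counts cover counting error only, and the floor for a count of 0 is 3 counts. The alternatives were RLE size factors, library totals, DESeq2 1.42.0, limma 3.58.1 with weights per genotype, no filter, a replicate block, removal of GC content and length trends per library (splines with 5 degrees of freedom), the 6 libraries of the genotypes compared, and each library left out. The fit without WT replicates 1 and 3 was chosen after seeing the data.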

Additional observations from a re-analysis of the deposited data

Results flagged for a closer look

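For 11 flanking genes the effect of D-KO differed from the sum of the E1-KO and E2-KO effects, by edgeR's test of the interaction over all 12 libraries. On the log2 scale this difference was -2.66 for B4galnt2 (adjusted p = 4.07e-05), -1.47 for Sp6 (adjusted p = 0.00610), -1.35 for Scrn2 (adjusted p = 0.0153) and -1.21 for Osbpl7 (adjusted p = 0.00126). It was -1.09 for Tbkbp1 (adjusted p = 0.0430), -0.96 for Abi3 (adjusted p = 0.00309), -0.93 for Nfe2l1 (adjusted p = 0.00217) and -0.47 for Cdk5rap3 (adjusted p = 0.0224). It was positive for Calcoco2 (0.77, adjusted p = 0.00471), Kpnb1 (0.62, adjusted p = 0.0115) and Cbx1 (0.43, adjusted p = 0.0199). Of all tested genes 35.2% had such a difference. With GC content and length trends removed 6 of the 11 were called, among them B4galnt2 (-2.54) and Calcoco2 (0.85). The 5 not called were Scrn2 (-0.63, adjusted p = 0.116), Tbkbp1 (-0.36, adjusted p = 0.266), Abi3 (-0.22, adjusted p = 0.437), Cbx1 (0.17, adjusted p = 0.211) and Cdk5rap3 (0.062, adjusted p = 0.749). The interaction correlated with GC content over the 25 tested flanking genes at a Spearman rho of -0.75, and at -0.47 over 16271 genes. Groups of 3 libraries were not searched for outlying samples.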

How the results depend on the processing

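Flanking genes called numbered 13 for E1-KO, 11 for E2-KO and 5 for D-KO against WT. They were 6, 4 and 2 with limma and weights per genotype, 8, 5 and 9 with GC content and length trends removed, and 5, 3 and 3 with only the 6 libraries of the genotypes compared. Against WT, D-KO had 3 with library totals as the only scaling and 9 without WT replicates 1 and 3, beside 34.8% of all genes; that fit leaves 1 WT library, which is assumed to vary like the KO groups. D-KO against E1-KO, with 5, had 12 with limma and 15 with 6 libraries. D-KO against E2-KO, with 2, had 1 with library totals, 7 with limma, 1 with the replicate block and 8 with 6 libraries. E1-KO against E2-KO, with 0, had 1 with limma and 3 with 6 libraries. Leaving out each library gave 5 to 17 for E1-KO, 4 to 16 for E2-KO and 2 to 10 for D-KO against WT, 1 to 9 in D-KO against E1-KO, 1 to 6 in D-KO against E2-KO, 0 to 0 in E1-KO against E2-KO and 8 to 15 for the interaction, while the share of all genes called ran from 23% to 51.1%, 23% to 51.9%, 14% to 40.9%, 6.82% to 28.8%, 1.32% to 16.8%, 0.0929% to 4.2% and 26.8% to 50.7% in the same order. The cause of these shifts was not tested.

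Some values changed direction. Without WT replicates 1 and 3, Mrpl10 was at -0.30 in E1-KO and -0.33 in D-KO, Atp5g1 at -0.51 in E1-KO with an interaction of 0.44, and Kpnb1 at 0.23 in D-KO, all against WT. With GC content and length trends removed, Zfp652 was at 0.33 in E2-KO against WT and the interaction of Cdk5rap3 was 0.062. Without WT replicate 2, Atp5g1 was at 0.36 in E2-KO against WT. The cause was not tested.

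With library totals, the median of all genes was 0.10 in E1-KO against WT, -0.11 in D-KO against E1-KO and -0.18 for the interaction, and the share of calls that were higher was 57.1%, 35.9% and 38.7%, where TMM gave 45.9%, 52.9% and 51.4%; for E1-KO against E2-KO it was 65%, where TMM gave 54%. Replicate numbers did not pair the libraries: over 18 same-numbered pairs the correlation of deviations was -0.11 to 0.11, with 1 over 0.1, and 2 of 12 libraries correlated best with their own number. The replicate block left 170 of 175 single values on their side of the threshold and ended 5 calls; the block together with GC trends was not run, since the numbers do not pair. With 3 libraries a group and 1 widely spread WT group, small changes of low genes such as Prr15l are beyond this depth. The larger values of Skap1 rest on few reads and on a filter passed only through WT.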
